A study of Homo sapiens with 24 samples.

Results

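The 34 genes described here make cholesterol and fatty acids, sense sterols or export them. They were chosen by symbol from a list of sterol synthesis, SREBP control, fatty acid synthesis and LXR target genes, and all 34 were found among 34213 genes in the deposited counts. All 34 also passed the low-count filter, which left 16076 genes to test, and each had reads in all 24 libraries, the lowest count of a member in a library being 50. RNA was sequenced from HEL, an established human erythroleukaemia cell line that carries an activating JAK2 mutation and was used here to compare clinical JAK inhibitors. Cells were given DMSO, the solvent, or 500 nM of ruxolitinib, fedratinib, momelotinib, pacritinib or itacitinib, and were taken after 4 h or 48 h. Each of the 12 groups had 2 libraries, so n = 2 for every group value. The labels do not say that the replicates were separate cultures, so the p-values below reflect differences among sequenced libraries and may capture technical variation only.

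Cholesterol is built from acetyl-CoA through mevalonate, isoprenoids and squalene, and fatty acids are built from acetyl-CoA by carboxylation, elongation and desaturation. Both routes are driven by the SREBP transcription factors, which SCAP escorts to the Golgi for activation when sterols are low and which the INSIG proteins hold in the endoplasmic reticulum when sterols are high. The LXR nuclear receptors are switched on by oxysterols and raise the exporters ABCA1 and ABCG1 and the ubiquitin ligase MYLIP, which removes lipoprotein receptors, so this arm responds to sterol excess. JAK kinases carry cytokine signals to STAT transcription factors. Ruxolitinib and momelotinib inhibit JAK1 and JAK2, fedratinib and pacritinib mainly JAK2 among the JAKs, and itacitinib mainly JAK1.

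Promoter sequences from RefSeq (GRCh38.p14) were matched to 29 of the 34 genes. The stretches below come from the 250 bases before the RefSeq start of genes whose RNA the results turn on. They are shown because SREBP targets usually carry a partner site for NF-Y or Sp1 beside the sterol element. Only bases outside annotated exons are printed, 5′ to 3′ on the gene's strand. Capitals mark the NF-Y box CCAAT on either strand (ATTGG on the other) and the E-box CACGTG, and the INSIG2 stretch is an example with neither.
HMGCS1, chr5:43313513-43313662, minus strand: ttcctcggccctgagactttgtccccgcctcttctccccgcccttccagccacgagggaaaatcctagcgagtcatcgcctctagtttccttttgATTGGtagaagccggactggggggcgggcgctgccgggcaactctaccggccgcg
MSMO1, chr4:165327419-165327622, plus strand: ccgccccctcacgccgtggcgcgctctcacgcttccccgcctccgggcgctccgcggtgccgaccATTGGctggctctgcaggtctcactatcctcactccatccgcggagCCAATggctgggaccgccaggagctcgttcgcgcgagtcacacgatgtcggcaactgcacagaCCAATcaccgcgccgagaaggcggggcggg
DHCR7, chr11:71448436-71448643, minus strand: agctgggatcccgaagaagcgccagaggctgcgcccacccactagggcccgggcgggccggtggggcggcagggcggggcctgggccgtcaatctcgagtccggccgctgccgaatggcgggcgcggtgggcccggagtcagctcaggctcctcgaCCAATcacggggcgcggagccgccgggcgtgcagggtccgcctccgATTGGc
INSIG1, chr7:155297628-155297775, plus strand: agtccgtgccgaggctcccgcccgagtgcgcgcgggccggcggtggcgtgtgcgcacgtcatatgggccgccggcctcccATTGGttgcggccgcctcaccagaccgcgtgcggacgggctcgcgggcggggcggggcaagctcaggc
SCD, chr10:100346983-100347123, plus strand: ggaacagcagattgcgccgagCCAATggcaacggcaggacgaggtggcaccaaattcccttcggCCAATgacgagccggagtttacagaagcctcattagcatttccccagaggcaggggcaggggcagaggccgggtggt
MYLIP, chr6:16128836-16129085, plus strand: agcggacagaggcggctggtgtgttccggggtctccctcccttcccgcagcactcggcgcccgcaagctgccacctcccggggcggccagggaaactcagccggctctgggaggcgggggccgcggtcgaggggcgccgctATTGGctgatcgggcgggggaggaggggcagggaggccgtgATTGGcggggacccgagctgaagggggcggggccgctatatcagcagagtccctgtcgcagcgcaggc
ABCA1, chr9:104928238-104928405, minus strand: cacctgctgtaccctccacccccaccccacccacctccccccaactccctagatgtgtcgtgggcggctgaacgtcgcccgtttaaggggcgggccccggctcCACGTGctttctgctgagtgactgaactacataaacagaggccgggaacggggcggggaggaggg
INSIG2, chr2:118088221-118088451, plus strand: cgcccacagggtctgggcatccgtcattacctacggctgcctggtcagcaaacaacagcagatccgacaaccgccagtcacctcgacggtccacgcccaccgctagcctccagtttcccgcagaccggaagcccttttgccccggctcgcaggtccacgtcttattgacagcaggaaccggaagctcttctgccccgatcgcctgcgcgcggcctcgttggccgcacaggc

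In the whole 250-base windows, CCAAT was found in 17 of the 29 member promoters (58.6%), against 32% of 35116 promoters of the same length. The Sp1 box GGGCGG was found in 26 of 29 (89.7%), against 42.6%, and CACGTG in 4 (13.8%), against 6.34%. The LXR direct repeat was found in 0 member promoters, against 0.0142%, but ABCG1 had no matched promoter and was not searched. The sterol element core TCACNCCAC was found in 1 member promoter, that of SREBF2 (3.45%), against 0.883% of all promoters. The members gave 1 promoter per gene, all of protein-coding genes with reads. The 35116 were not limited in these ways, so the shares compare unlike sets and were not tested. Members called and not called were found both with and without the box. Of the 17 with CCAAT, 12 were called lower at 48 h with at least 1 inhibitor, and of the 12 without it 5 were. The same shares over all genes were not counted, and a link between the box and the fall was not tested. No promoter was matched for ACAT2, FDFT1, SQLE, FASN and ABCG1, so they enter neither count. Each of them was called lower at 48 h with at least 1 inhibitor. NSDHL, STARD4 and SC5D, called in none of the comparisons with DMSO, held 5, 2 and 1 CCAAT boxes. INSIG2, also called in none, held 0, as did IDI1, ACACA and SREBF1, which were called. These searches covered both strands, and the letters of CCAAT and CACGTG do not let a match of one overlap a match of the other. A match describes letters only, and letters outside these windows were not searched. The windows follow RefSeq starts, which can lie away from the GENCODE 29 starts. That of IDI1, chr10:1056705-1056954, overlaps WDR37 exons and lies outside the IDI1 gene at chr10:1039152-1049170. The bases just before the GENCODE 29 start of IDI1 were therefore not searched. The DHCR7 window lies inside the DHCR7 gene span. In the GENCODE 29 annotation the protein-coding genes named most often below lie at chr5:43289395-43313512 (HMGCS1, ENSG00000112972), chr11:71428193-71452868 (DHCR7, ENSG00000172893), chr7:155297776-155310235 (INSIG1, ENSG00000186480), chr10:100347124-100364834 (SCD, ENSG00000099194), chr9:104781002-104928237 (ABCA1, ENSG00000165029) and chr21:42199689-42297244 (ABCG1, ENSG00000160179).

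Total counts ran from 32153866 to 56618281 per library. The 10 erythroid and megakaryocytic markers of HEL all had reads in every library. Their summed level was 3980 to 3990 CPM (counts scaled to the TMM library size) with DMSO at 48 h and 6140 to 6220 CPM with ruxolitinib at 48 h. It lay between 4020 and 5180 CPM in the other inhibitor libraries at 48 h. The globin gene HBG2 weighs most in this sum, with a mean of 2050 CPM over all libraries, against 22.6 CPM for ITGB3, the lowest. The sum therefore does not show how each marker moved. The 9 markers of other cell types summed to 3.66 to 8.95 CPM over all libraries, most of it CD79A, which reached 7.84 CPM. The copies of RN7SL, an abundant structural RNA, took 2.42 to 2.52% of counts with DMSO at 4 h, 3.05 to 3.36% with DMSO at 48 h, 3.92 to 3.99% with ruxolitinib at 48 h and 4.52 to 4.76% with pacritinib at 48 h. The part of these shifts in the results below was not tested. In cultured cells sequenced in bulk, fewer cells of a kind and less RNA per cell cannot be told apart. PIM1, CISH and SOCS2, direct STAT targets, fell at 4 h with ruxolitinib, with log2 changes of -1.69, -1.76 and -0.53, and with pacritinib (-0.25, -0.57 and -0.69). With momelotinib PIM1 (-0.35) and CISH (-0.34) fell, and none of the 3 was called with fedratinib (-0.16, -0.19 and -0.16) or itacitinib (-0.05, 0.13 and -0.10). At 48 h they were lower with ruxolitinib (-0.69, -0.33 and -0.38) and higher with pacritinib (0.15, 0.43 and 0.31), and none was called with the other 3 inhibitors.

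Per kilobase of exon, FASN, the fatty acid synthase, had the highest level of the 34 genes with DMSO at 4 h, at 167 ± 4.5 CPM per kb (SD, n = 2). SQLE, the squalene epoxidase, followed at 65.5 ± 1.89, SCD, the stearoyl-CoA desaturase, at 47.2 ± 1.01, and SREBF2, which encodes the SREBP that drives sterol synthesis, at 41.7 ± 0.296 CPM per kb. SREBF1, its paralog, stood at 13.6 ± 0.239, and the sterol sensor INSIG1 at 13 ± 0.255, against 2.33 ± 0.164 CPM per kb for INSIG2. ABCA1 was the lowest member at 0.449 ± 0.00995 CPM per kb, below HSD17B7 at 0.914 ± 0.0139. Neighbours in the middle of the order, such as MYLIP at 5.83 ± 0.111 and MSMO1 at 5.84 ± 0.638 CPM per kb, did not differ beyond their spread. Exons of 15 members overlap another annotated gene, and reads can be shared there. The overlap covers 83.2% of the exon bases of CYP51A1, 52.3% of ACAT2 and 41% of GGPS1, so their values are uncertain, and so are those of HSD17B7, which has a near-identical pseudogene.

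**Figure D1:**
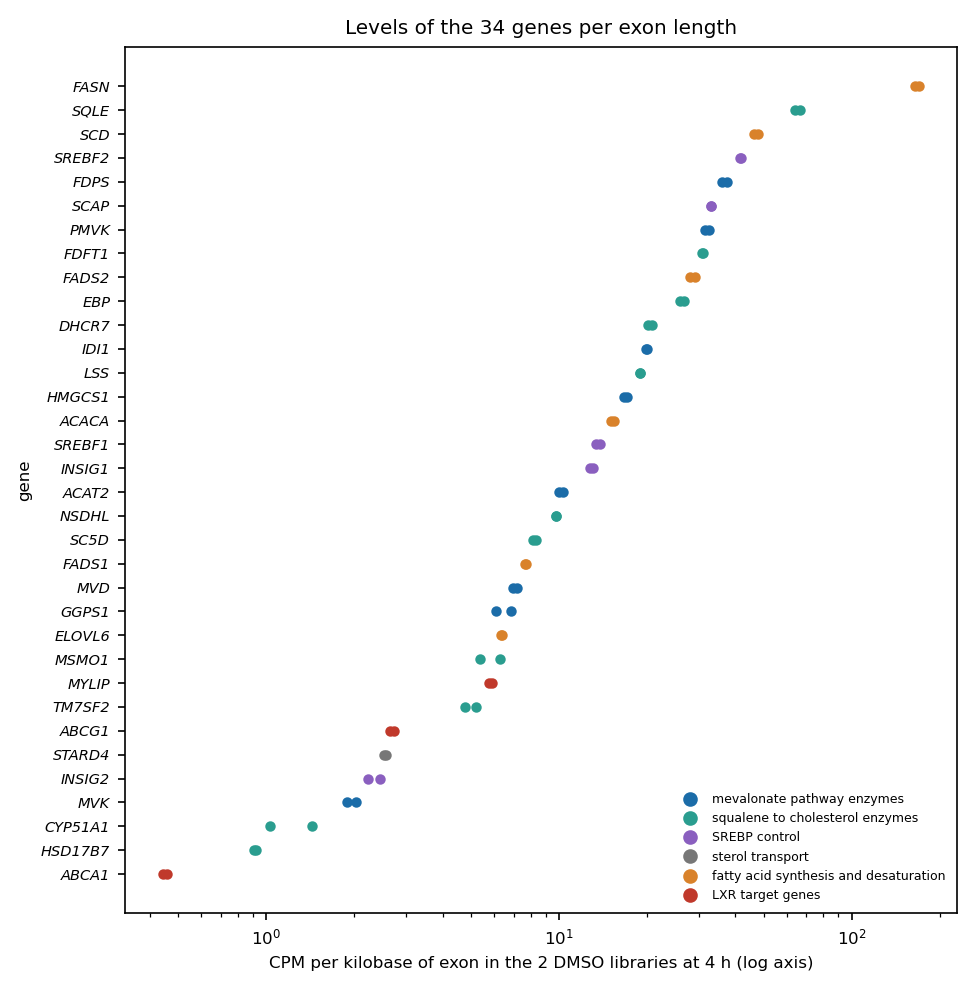
Levels of the 34 genes with DMSO at 4 h, in CPM per kilobase of exon on a log axis. Each point is 1 of the 2 libraries and colours give the role. The genes run from ABCA1 at 0.449 to FASN at 167 CPM per kb.

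Between 4 h and 48 h in DMSO alone, 14 of the 34 genes rose and 0 fell. Over all genes, 8.16% were called in this comparison and 4.04% were called higher, where called means an adjusted p under 0.05 in edgeR's quasi-likelihood test with Benjamini-Hochberg adjustment over 16076 genes. The median change of the 34 genes was 0.20 (log2), and that of all genes 0. The exporter ABCG1 rose most, from 16.2 and 16.7 CPM to 29.3 and 32.2 CPM, a log2 change of 0.90 (SE 0.11, adjusted p = 1.5e-06). SCD rose from 257 and 249 to 388 and 397 CPM, by 0.63. LSS, which cyclises squalene epoxide to lanosterol, rose from 137 and 137 to 203 and 197 CPM, by 0.55, and INSIG1 from 46.6 and 48 to 67.4 and 69.8 CPM, by 0.54. For these genes both 48 h libraries lay above both 4 h libraries, a separation not counted over all genes. The others that rose were DHCR7 (0.49), MYLIP (0.45), MVK (0.43), ACACA (0.39), MSMO1 (0.38), FADS1 (0.34), FADS2 (0.25), SREBF1 (0.23), FDFT1 (0.21) and FDPS (0.19). With any 1 of the 4 DMSO libraries left out, 10 to 11 members were called, and LSS, DHCR7, INSIG1, ACACA, SCD, FADS1, FADS2, ABCG1 and MYLIP were called in each of these fits. Lost with 1 library left out were the calls on MVK, FDPS, MSMO1 and SREBF1 without DMSO replicate 1 at 4 h (adjusted p = 0.0955 to 0.303) and MVK, FDPS, MSMO1 and SREBF1 without DMSO replicate 2 at 48 h (0.0587 to 0.303). Also lost were FDPS, MSMO1 and SREBF1 without DMSO replicate 2 at 4 h (0.0511 to 0.0843) and FDPS, FDFT1, MSMO1 and SREBF1 without DMSO replicate 1 at 48 h (0.0579 to 0.201).

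At 48 h every call on these genes but 1 was a decrease against DMSO. Ruxolitinib lowered 19 of 34 and raised 1, fedratinib lowered 13, momelotinib 12, pacritinib 14 and itacitinib 6. Over all genes, 25.7% were called with ruxolitinib (13.2% lower and 12.5% higher), 7.7% with fedratinib (4.04% lower), 1.94% with momelotinib (0.946% lower), 18.3% with pacritinib (10.1% lower) and 0.442% with itacitinib (0.355% lower). The shares of members called were 58.8%, 38.2%, 35.3%, 41.2% and 17.6% in the same order. Median changes of the 34 genes were -0.21, -0.16, -0.17, -0.21 and -0.17 (log2), while the medians of all genes lay between 0 and 0.01. The summed level of the 34 genes was 5200 and 5090 CPM with DMSO at 48 h and 4210 and 4220 CPM with ruxolitinib, with the libraries of the other inhibitors between 4360 and 4750 CPM. These 5 comparisons use the same 2 DMSO libraries, which are also those of the rise over time, so a low value in 1 of them is not independent of the others. Where libraries are said below not to overlap with DMSO, this describes single genes. The share of all genes that separate this way was not counted, and with 2 libraries per group such separation can arise by chance.

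**Figure D2:**
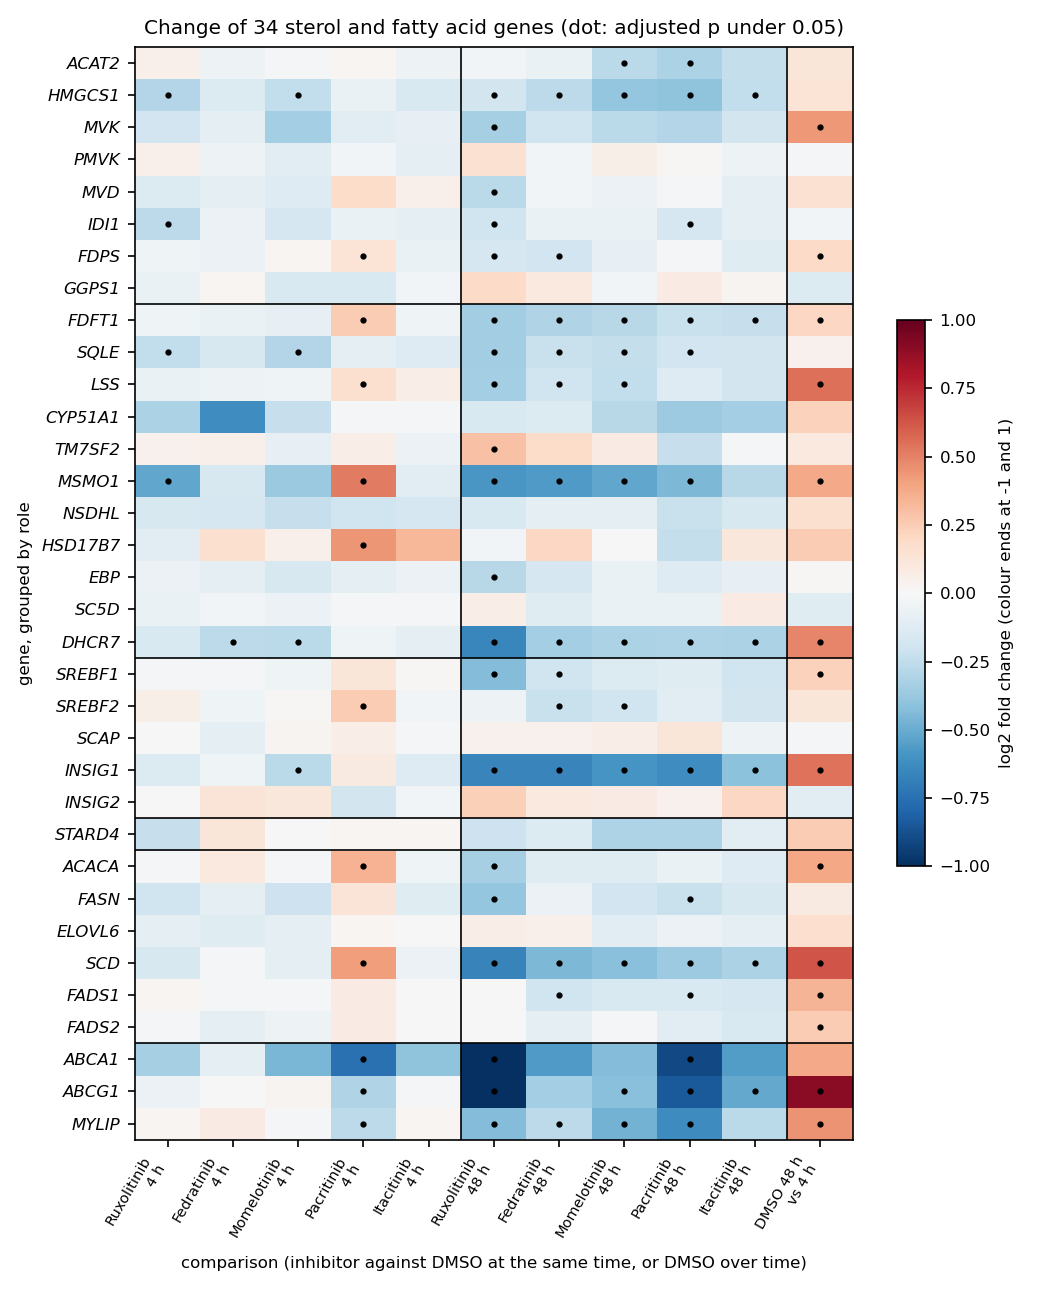
Log2 fold change of the 34 genes (rows, grouped by role) for each inhibitor against DMSO at 4 h and 48 h and for DMSO over time (columns). Red is higher and blue lower, colour ends at -1 and 1, and a dot marks an adjusted p under 0.05. The 48 h columns are mostly blue, with the deepest blue for ABCA1 (-2.06) and ABCG1 (-1.56) with ruxolitinib, and the DMSO column is mostly red.

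**Figure D3:**
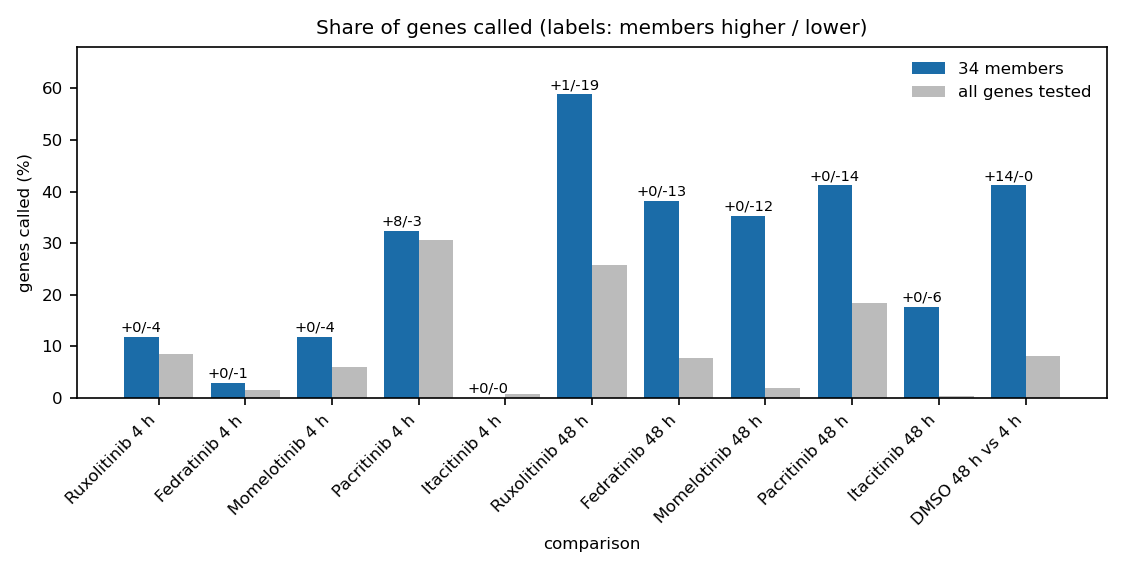
Percent of genes called in each comparison, for the 34 genes (blue) and for all 16076 genes tested (grey), with the members called higher and lower above the blue bars. With ruxolitinib at 48 h 58.8% of members were called, against 25.7% of all genes, and with pacritinib at 4 h 32.4%, against 30.6%.

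With 1 library left out, ruxolitinib had 15 to 18 member calls in place of 20, newly made calls included. Of the 20, the 14 on FDFT1, SQLE, LSS, MSMO1, EBP, DHCR7, SREBF1, INSIG1, ACACA, FASN, SCD, ABCA1, ABCG1 and MYLIP held in every such fit. Among single calls, those lost were on HMGCS1, MVK and TM7SF2 without DMSO replicate 2 (adjusted p = 0.0611 to 0.412) and HMGCS1, MVK, MVD, IDI1, FDPS and TM7SF2 without ruxolitinib replicate 2 (0.058 to 0.263). Also lost were MVK and FDPS without ruxolitinib replicate 1 (0.0911 to 0.0997) and MVD, FDPS and TM7SF2 without DMSO replicate 1 (0.131 to 0.165).

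With fedratinib, FDFT1, DHCR7, SREBF2, INSIG1 and SCD were called in every such fit. The count dropped from 13 to 8 without DMSO replicate 1, 6 without DMSO replicate 2 and 5 without fedratinib replicate 1. The calls that did not hold were on HMGCS1, FDPS, SQLE, MSMO1, SREBF1, FADS1 and MYLIP without DMSO replicate 2 (adjusted p = 0.0542 to 0.348) and HMGCS1, FDPS, SQLE, LSS, MSMO1, SREBF1, FADS1 and MYLIP without fedratinib replicate 1 (0.0561 to 0.205). Also lost were FDPS, LSS, SREBF1, FADS1 and MYLIP without DMSO replicate 1 (0.0693 to 0.222) and SREBF1 and MYLIP without fedratinib replicate 2 (0.133 to 0.222). With momelotinib, HMGCS1, FDFT1, INSIG1 and SCD were called in every fit. Its count dropped from 12 to 7 without DMSO replicate 1, 5 without DMSO replicate 2 and 4 without momelotinib replicate 1. Single losses were of ACAT2, LSS, DHCR7, SREBF2 and ABCG1 without DMSO replicate 1 (adjusted p = 0.0561 to 0.268) and ACAT2, SQLE, MSMO1, DHCR7, SREBF2, ABCG1 and MYLIP without DMSO replicate 2 (0.0586 to 0.335). Also lost were ACAT2, SQLE, LSS, MSMO1, DHCR7, SREBF2, ABCG1 and MYLIP without momelotinib replicate 1 (0.0956 to 0.412) and SQLE, MSMO1, SREBF2 and ABCG1 without momelotinib replicate 2 (0.086 to 0.304).

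With pacritinib, ACAT2, HMGCS1, FDFT1, INSIG1, SCD, ABCG1 and MYLIP were called in every fit, and the count of 14 became 7 without pacritinib replicate 1. Individually, calls were lost on IDI1, FASN and FADS1 without DMSO replicate 1 (adjusted p = 0.0862 to 0.189) and IDI1, SQLE, MSMO1, FASN and FADS1 without DMSO replicate 2 (0.0631 to 0.0919). Also lost were IDI1, SQLE, MSMO1, DHCR7, FASN, FADS1 and ABCA1 without pacritinib replicate 1 (0.0532 to 0.341) and IDI1 without pacritinib replicate 2 (0.122). No itacitinib call held in every fit, and its count of 6 became 1 without either DMSO replicate and 0 without itacitinib replicate 2. Losses by library were of HMGCS1, FDFT1, DHCR7, SCD and ABCG1 without DMSO replicate 1 (adjusted p = 0.0547 to 0.223) and HMGCS1, FDFT1, DHCR7, SCD and ABCG1 without DMSO replicate 2 (0.0653 to 0.47). Also lost were HMGCS1 without itacitinib replicate 1 (0.157) and HMGCS1, FDFT1, DHCR7, INSIG1, SCD and ABCG1 without itacitinib replicate 2 (0.217 to 0.459).

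Among the 8 enzymes of the mevalonate pathway, 5 fell with ruxolitinib at 48 h, 2 with fedratinib, 2 with momelotinib, 3 with pacritinib and 1 with itacitinib. Their median log2 changes were -0.17, -0.07, -0.07, -0.09 and -0.11, beside medians of 0 to 0.01 over all genes. Of all genes, 13.2%, 4.04%, 0.946%, 10.1% and 0.355% were called lower, in the same inhibitor order. HMGCS1, the cytosolic synthase that makes hydroxymethylglutaryl-CoA, stood at 82.6 and 92.7 CPM with DMSO. It was at 80.3 and 74.7 CPM with ruxolitinib, 73.4 and 73.2 with fedratinib, 70.4 and 63.8 with momelotinib, 67 and 65.4 under pacritinib and 73.2 and 74.3 CPM with itacitinib. All 10 inhibitor libraries lay below the same 2 DMSO libraries, a separation not counted over all genes. The log2 changes were -0.18, -0.26, -0.39, -0.40 and -0.25, all called, with SE 0.06 each and adjusted p = 0.026, 0.0057, 0.00034, 8.3e-06 and 0.043 (edgeR). The ruxolitinib, fedratinib and itacitinib calls were each lost with at least 1 library left out, and those with momelotinib and pacritinib held. MVK, the mevalonate kinase, fell by 0.33 and MVD, the decarboxylase after it, by 0.27 with ruxolitinib. ACAT2, the thiolase that makes acetoacetyl-CoA, fell with momelotinib (-0.27) and pacritinib (-0.32) and stood at -0.03 with ruxolitinib. IDI1, the isopentenyl isomerase, fell with ruxolitinib (-0.20) and pacritinib (-0.17), and FDPS, the farnesyl synthase, with ruxolitinib (-0.17) and fedratinib (-0.19). PMVK, the phosphomevalonate kinase, and GGPS1, which makes geranylgeranyl diphosphate for protein prenylation, were not called with any inhibitor, and with ruxolitinib they stood at 0.15 and 0.19.

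Of the 11 enzymes from squalene to cholesterol, 6 fell and 1 rose with ruxolitinib at 48 h, 5 fell with fedratinib, 5 with momelotinib, 4 with pacritinib and 2 with itacitinib, with median log2 changes of -0.28, -0.17, -0.24, -0.22 and -0.18. Among all genes, 13.2% were called lower and 12.5% higher with ruxolitinib. With the other inhibitors, 4.04%, 0.946%, 10.1% and 0.355% were called lower, in the same order. DHCR7, which makes cholesterol from its dehydro precursor, stood at 119 and 120 CPM with DMSO and at 79 and 72.8 CPM with ruxolitinib. The libraries of the other inhibitors ran from 87.8 CPM (itacitinib) to 103 CPM (itacitinib and pacritinib), all below DMSO. Its log2 changes were -0.65 with ruxolitinib (SE 0.06, adjusted p = 8.6e-10 in edgeR), -0.34 with fedratinib, -0.32 with momelotinib, -0.31 with pacritinib and -0.32 with itacitinib, all called. The last 3 of these calls were each lost with at least 1 library left out. FDFT1, the squalene synthase, fell from 188 and 183 CPM to 144 and 146 CPM with ruxolitinib, and its 5 changes were -0.35, -0.30, -0.28, -0.22 and -0.23, all called. The FDFT1 call with itacitinib was lost in some fits with 1 library left out. MSMO1, the sterol C4 methyl oxidase, fell from 20.9 and 23.2 CPM to 14.1 and 15.3 with ruxolitinib (-0.58), 12.7 and 16.9 with fedratinib (-0.57), 16.1 and 14.7 with momelotinib (-0.52) and 15.1 and 17 CPM with pacritinib (-0.45). With itacitinib MSMO1 stood at -0.28 (adjusted p = 0.31). Both libraries of each inhibitor lay below both DMSO libraries for DHCR7, FDFT1 and MSMO1, which was not counted over all genes.

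SQLE fell from 284 and 296 CPM to 230 and 223 with ruxolitinib (-0.35), and also with fedratinib (-0.22), momelotinib (-0.24) and pacritinib (-0.19), and stood at -0.18 with itacitinib (adjusted p = 0.128 in edgeR). LSS, the cyclase, fell with ruxolitinib (-0.34), fedratinib (-0.20) and momelotinib (-0.25). EBP, the sterol isomerase, fell with ruxolitinib (-0.28) and stood at -0.17, -0.07, -0.13 and -0.08 with the others in the order above. The difference in EBP between ruxolitinib and itacitinib was itself called (-0.19, adjusted p = 0.0126), though not without ruxolitinib replicate 2 (0.118) or itacitinib replicate 1 (0.125). TM7SF2, a sterol C14 reductase, was the only member called higher at 48 h, with ruxolitinib, from 17.8 and 18.7 to 21.6 and 23 CPM. That change was 0.29 (SE 0.09, adjusted p = 0.021), and it was lost without DMSO replicate 1 (0.146) or 2 (0.0611) or ruxolitinib replicate 2 (0.174). CYP51A1, NSDHL and SC5D, which act between lanosterol and the last steps, were not called with any inhibitor at either time. HSD17B7, the sterol ketoreductase, was not called at 48 h.

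**Figure D4:**
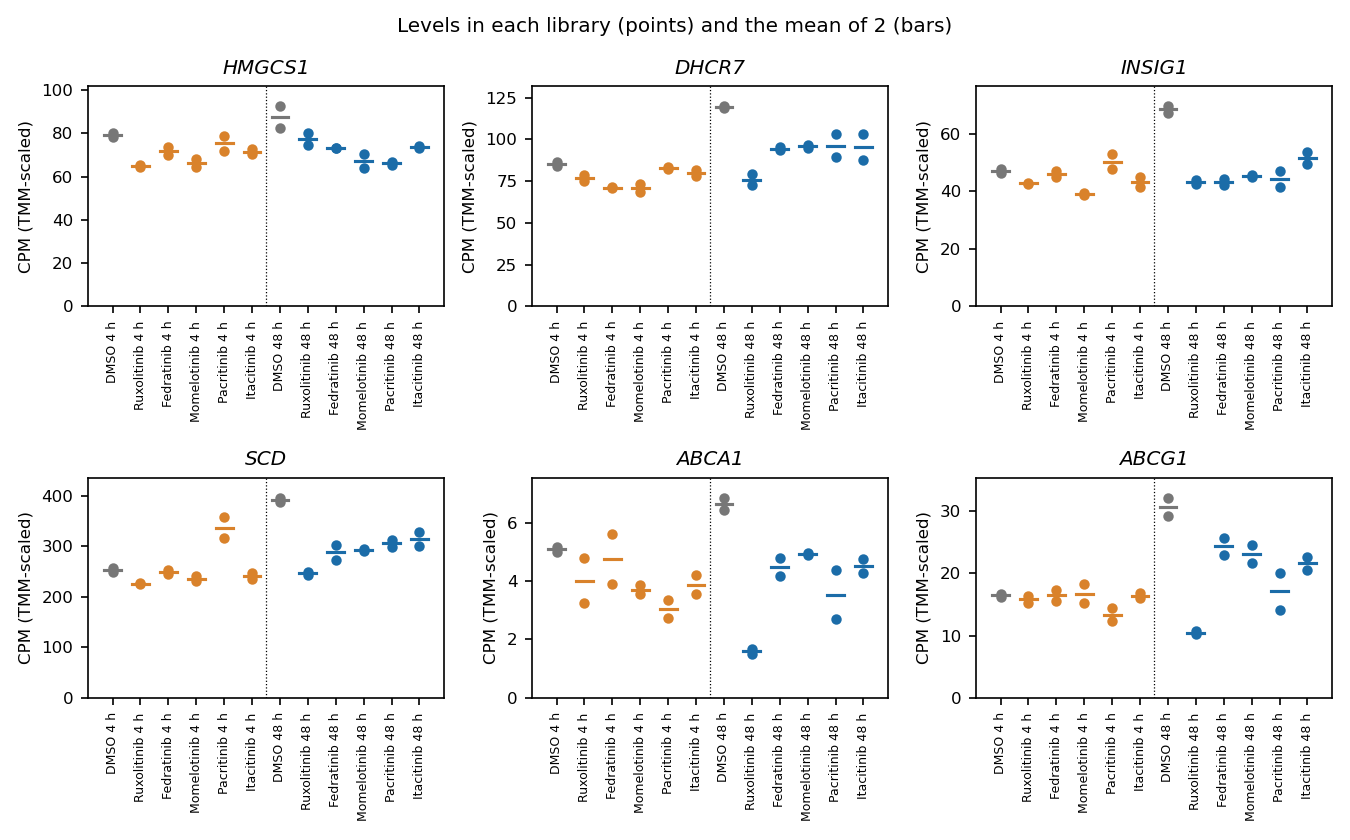
Levels of 6 genes in CPM in each library (points) and the mean of the 2 libraries (bars), for the 12 groups, with 4 h left of the dotted line and 48 h right of it. DMSO is grey, inhibitors at 4 h orange and at 48 h blue. The DMSO libraries at 48 h are the highest of all 24 for the 6 genes shown, and ruxolitinib at 48 h takes ABCA1 to 1.67 and 1.5 CPM.

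Of the 5 genes of SREBP control, 2 fell with ruxolitinib, 3 with fedratinib, 2 with momelotinib, 1 with pacritinib and 1 with itacitinib, with medians of -0.05, -0.20, -0.14, -0.11 and -0.18 (log2). Of all genes, 13.2%, 4.04%, 0.946%, 10.1% and 0.355% were called lower, in the same order. The pacritinib share called, 20%, was near the 18.3% of all genes called in either direction. INSIG1, itself a textbook SREBP target, changed most of the 5. At 48 h it stood at 67.4 and 69.8 CPM with DMSO, 44.1 and 42.5 with ruxolitinib, 42.4 and 44.4 with fedratinib, 45.2 and 45.7 with momelotinib, 41.6 and 47.2 under pacritinib and 53.8 and 49.7 CPM with itacitinib. The groups did not overlap with DMSO, a separation not counted over all genes. Log2 changes were -0.66 (SE 0.06, adjusted p = 9.1e-10 in edgeR), -0.66, -0.59, -0.62 and -0.41, all called, the last lost without itacitinib replicate 2 (adjusted p = 0.217). INSIG2, its paralog, ran from 0.04 to 0.24 (log2) and was called with none. SREBF1 fell with ruxolitinib, from 131 and 125 to 94.6 and 94.8 CPM (-0.43, SE 0.06, adjusted p = 1.9e-06), and with fedratinib (-0.20). SREBF2 fell with fedratinib (-0.22) and momelotinib (-0.20) and stood at -0.05 with ruxolitinib. SCAP was called with none, between -0.05 and 0.12. STARD4, a sterol carrier protein, ran from -0.31 to -0.11 and was called with none.

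Of the 6 genes of fatty acid synthesis and desaturation, 3 fell with ruxolitinib at 48 h, 2 with fedratinib, 1 with momelotinib, 3 with pacritinib and 1 with itacitinib, with medians of -0.17, -0.11, -0.14, -0.13 and -0.16 (log2). Shares of all genes called lower were 13.2%, 4.04%, 0.946%, 10.1% and 0.355%, in the same order. SCD, which makes monounsaturated fatty acids, stood at 388 and 397 CPM with DMSO and at 244 and 249 with ruxolitinib, 274 and 302 with fedratinib, 291 and 295 with momelotinib, 299 and 313 under pacritinib and 329 and 300 CPM with itacitinib. No inhibitor library reached the DMSO range, which was not counted over all genes. The changes were -0.67 (SE 0.05, adjusted p = 1.3e-11 in edgeR), -0.45, -0.42, -0.36 and -0.32, all called, the last lost in some fits with 1 library left out. ACACA, the acetyl-CoA carboxylase, fell with ruxolitinib, from 265 and 253 to 211 and 201 CPM (-0.33). FASN fell with ruxolitinib (-0.39) and pacritinib (-0.22), the latter lost with DESeq2. FADS1, a polyunsaturated fatty acid desaturase, fell with fedratinib (-0.20) and pacritinib (-0.15, lost with no filter) and stood at 0.00 with ruxolitinib, its libraries there at 101 and 98.4 CPM against 100 and 98.4 CPM with DMSO. Its neighbour FADS2 and the elongase ELOVL6 were called with none. FADS1 and FADS2 overlap each other on opposite strands, and a small RNA gene, MIR1908, and FEN1 overlap them on the same strand. Together these overlaps cover 5.57% of the exon bases of FADS1 and 4.89% of those of FADS2.

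The 3 LXR targets fell with ruxolitinib and pacritinib at 48 h, while 1 fell with fedratinib, 2 with momelotinib and 1 with itacitinib. Their medians were -1.56 with ruxolitinib, -0.34 with fedratinib, -0.43 with momelotinib, -0.84 with pacritinib and -0.51 with itacitinib (log2). Shares of all genes called lower were 13.2%, 4.04%, 0.946%, 10.1% and 0.355%, in the same order. ABCA1 went from 6.43 and 6.86 CPM with DMSO to 1.67 and 1.5 CPM with ruxolitinib, a log2 change of -2.06 (SE 0.22, adjusted p = 4.7e-09 in edgeR), and ABCG1 from 29.3 and 32.2 to 10.7 and 10.2 CPM, a change of -1.56 (SE 0.12, adjusted p = 3.2e-12). These 2 were the only calls on the 34 genes at 48 h that reached 2-fold. With pacritinib ABCA1 stood at 2.71 and 4.36 CPM (-0.90) and ABCG1 at 14.1 and 20.1 CPM (-0.84), and the ABCA1 call was lost without pacritinib replicate 1 (adjusted p = 0.0661). ABCA1 was not called with fedratinib (-0.57, adjusted p = 0.057), momelotinib (-0.43) or itacitinib (-0.56). ABCG1 was called with momelotinib (-0.42) and itacitinib (-0.51), and stood at -0.34 with fedratinib (adjusted p = 0.051). MYLIP fell from 23.2 and 25.2 CPM to 17.9 and 17.9 with ruxolitinib (-0.43), 20.7 and 19.6 with fedratinib (-0.26, lost with no filter or DESeq2), 16.9 and 18 with momelotinib (-0.47) and 15.4 and 15.8 CPM with pacritinib (-0.63), and was not called with itacitinib (-0.27). Every inhibitor library at 48 h lay below both DMSO libraries for ABCA1, ABCG1 and MYLIP. The same DMSO libraries serve every inhibitor, and the share of all genes separated this way was not counted.

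At 4 h the picture differed by inhibitor. Pacritinib raised 8 of the 34 genes and lowered 3, beside 30.6% of all genes called (13.1% higher and 17.4% lower), so its share of members, 32.4%, was near that of all genes. MSMO1 rose from 15.6 and 18.2 to 22.1 and 26.6 CPM (0.52, SE 0.11, adjusted p = 0.00061 in edgeR) and SCD from 257 and 249 to 316 and 359 CPM (0.42, SE 0.05, adjusted p = 4.3e-07). ACACA rose by 0.35, SREBF2 by 0.25 and FDFT1 by 0.25, and these 5 calls held with each library left out. HSD17B7 (0.44, lost with DESeq2), LSS (0.16) and FDPS (0.14) were also called. ABCA1 fell from 5.01 and 5.17 to 3.36 and 2.73 CPM (-0.75), with ABCG1 at -0.30 and MYLIP at -0.26, both called, though ABCG1 not with RLE scaling, a stricter filter or DESeq2. Without pacritinib replicate 1 or 2 the count of 11 became 7 or 5, and without DMSO replicate 1 or 2 it became 7 or 6. By library, the calls lost were on FDPS, LSS, HSD17B7 and ABCG1 without DMSO replicate 1 (adjusted p = 0.0917 to 0.273) and FDPS, LSS, HSD17B7, ABCG1 and MYLIP without DMSO replicate 2 (0.0587 to 0.197). Also lost were FDPS, LSS, HSD17B7 and MYLIP without pacritinib replicate 1 (0.0664 to 0.232) and FDPS, LSS, HSD17B7, ABCA1, ABCG1 and MYLIP without pacritinib replicate 2 (0.0545 to 0.396). The summed level of the 3 LXR targets was 32.4 and 30 CPM with pacritinib against 38.7 and 39.8 with DMSO, while that of the 6 fatty acid genes was 2720 and 2810 CPM against 2430 and 2490.

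The other inhibitors raised none of the 34 genes at 4 h. Ruxolitinib lowered 4 (8.47% of all genes called, 5.04% lower), namely MSMO1 (-0.52), HMGCS1 (-0.29), IDI1 (-0.26) and SQLE (-0.25). HMGCS1 went from 80.3 and 78.5 to 65.3 and 64.6 CPM (SE 0.06, adjusted p = 0.0013 in edgeR) and SQLE from 276 and 288 to 235 and 239 CPM, and these 2 calls held with each library left out. Fits without 1 library lost IDI1 without ruxolitinib replicate 2 (adjusted p = 0.0708) and MSMO1 without DMSO replicate 2 (0.143). Also lost were MSMO1 without ruxolitinib replicate 1 (0.126). Momelotinib lowered 4 (6% of all genes, 3.79% lower), HMGCS1 (-0.25), DHCR7 (-0.27), INSIG1 (-0.27) and SQLE (-0.29), of which SQLE held with each library left out, and the count became 2 without DMSO replicate 2. Here the calls lost were on HMGCS1 without DMSO replicate 1 (adjusted p = 0.0564) and HMGCS1 and INSIG1 without momelotinib replicate 1 (0.0526 to 0.0726). Also lost were DHCR7 and INSIG1 without DMSO replicate 2 (0.104 to 0.115) and DHCR7 without momelotinib replicate 2 (0.0988). Fedratinib lowered 1, DHCR7 (-0.26, with 1.59% of all genes called and 0.97% lower). The count became 0 without either DMSO replicate or fedratinib replicate 2. The fits short of 1 library lost DHCR7 without DMSO replicate 1 (adjusted p = 0.0712) and DHCR7 without DMSO replicate 2 (0.29). Also lost were DHCR7 without fedratinib replicate 1 (0.15) and DHCR7 without fedratinib replicate 2 (0.158). Itacitinib changed 0 members by edgeR (0.778% of all genes called), with 4 at an unadjusted p under 0.05 and 0 called by DESeq2. LXR targets were not called with ruxolitinib, fedratinib, momelotinib or itacitinib at 4 h.

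Whether an inhibitor's change differed between the times was tested as the change at 48 h minus the change at 4 h. It was called for 10 members with ruxolitinib (8.72% of all genes, 4.4% lower), 3 with fedratinib (4.12%, 2.12% lower), 2 with momelotinib (2.33%, 0.759% lower) and 16 with pacritinib (17.9%, 7.58% lower), in every case lower at 48 h. With itacitinib 0 members were called by edgeR (0.0124% of all genes), 12 had an unadjusted p under 0.05 and DESeq2 called 0. MSMO1 with pacritinib went from 0.52 at 4 h to -0.45 at 48 h, a difference of -0.97 (SE 0.16), and SCD from 0.42 to -0.36, a difference of -0.77 (SE 0.08). ABCG1 with ruxolitinib went from -0.06 to -1.56, a difference of -1.49 (SE 0.17). For momelotinib the count fell to 1 without DMSO replicate 1 at 4 h and to 0 without DMSO replicate 2 at 4 h or 48 h, momelotinib replicate 2 at 4 h, or either momelotinib replicate at 48 h. For pacritinib it fell to 9 without DMSO replicate 1 at 4 h, 8 without pacritinib replicate 2 at 4 h and 10 without pacritinib replicate 1 at 48 h.

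These differences also hold the rise in DMSO, so each inhibitor at 48 h was set against the same inhibitor at 4 h. This comparison has no DMSO group in its log2 change and was added after the data were seen. The DMSO libraries still took part in the fit behind its SE and p-values. Ruxolitinib had 6 members higher and 4 lower at 48 h (23.5% of all genes called, 11.7% in each direction), and fedratinib 10 and 1 (17%, 8.4% higher and 8.58% lower). Momelotinib had 10 and 0 (14.2%, 6.99% higher), pacritinib 3 and 10 (34.4%, 18.6% higher and 15.8% lower) and itacitinib 7 and 0 (6.73%, 2.64% higher). Median changes of the 34 genes were 0.06, 0.10, 0.16, -0.04 and 0.09, against 0.20 in DMSO. LSS was higher at 48 h in each treatment, by 0.28 with ruxolitinib, 0.39 with fedratinib, 0.34 with momelotinib, 0.26 with pacritinib and 0.30 with itacitinib, and all 5 calls held with each library left out. ABCG1 fell over time with ruxolitinib (-0.59) and rose with fedratinib (0.56), momelotinib (0.46), pacritinib (0.37) and itacitinib (0.40). The calls on ABCG1 with ruxolitinib and fedratinib held with each library left out, and those with the other inhibitors did not. ABCA1 fell with ruxolitinib (-1.35), also in each such fit. Under ruxolitinib INSIG1 (0.02, 95% interval -0.12 to 0.15) and DHCR7 (-0.02, interval -0.15 to 0.11) were not called over time. With pacritinib MSMO1 (-0.59), FDFT1 (-0.27) and SREBF2 (-0.23) fell over time in each such fit. HSD17B7 (-0.43) and FASN (-0.26) fell too, FASN not without pacritinib replicate 1 at 48 h (adjusted p = 0.125 in edgeR) and HSD17B7 not without any 1 of the 4 libraries (0.0586 to 0.195). The fedratinib count of 11 became 6 without either fedratinib replicate at 4 h or without replicate 1 at 48 h, that of momelotinib fell from 10 to 6 without its replicate 1 at 48 h, that of pacritinib from 13 to 5 without replicate 2 at 4 h, 7 without replicate 1 at 48 h and 8 without replicate 2 at 48 h, and that of itacitinib from 7 to 2 without replicate 2 at 4 h or replicate 1 at 48 h.

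**Figure D5:**
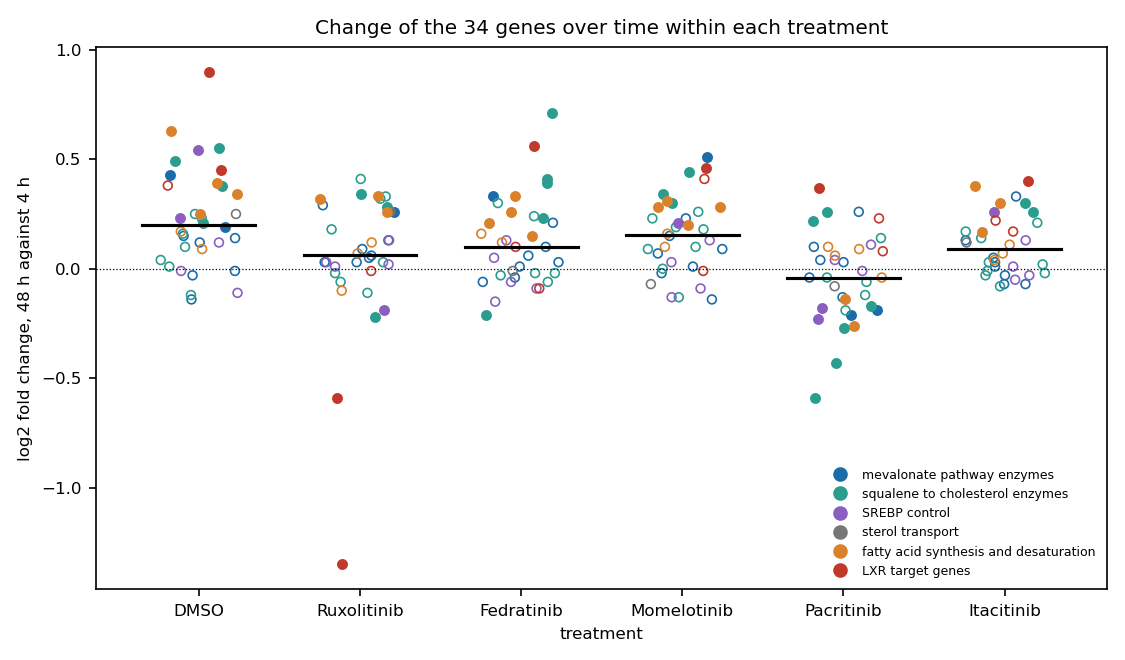
Log2 change of each of the 34 genes from 4 h to 48 h within each treatment. Points are genes coloured by role, filled where the adjusted p is under 0.05, and black lines are medians. The median is highest in DMSO (0.20) and lowest with pacritinib (-0.04), and ABCA1 with ruxolitinib (-1.35) lies lowest of all points.

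Inhibitors were also compared with each other at the same 500 nM dose and time, in 10 pairs at each of 2 times. No DMSO group enters these log2 changes, though the DMSO libraries shared the fit behind the SE and p-values. Ruxolitinib and itacitinib both carry a pyrrolopyrimidine joined to a pyrazole and differ in the rest of the molecule. At 4 h they differed in 1 member (5.9% of all genes called), MSMO1, with ruxolitinib minus itacitinib at -0.41 (SE 0.12, adjusted p = 0.0415 in edgeR), and this was lost without ruxolitinib replicate 1 (0.397) or itacitinib replicate 1 (0.294) or 2 (0.0534), the count becoming 0 without replicate 1 of either. SCD differed there by -0.10 (95% interval -0.21 to 0.02), INSIG1 by -0.02 (-0.15 to 0.12) and ABCG1 by -0.06 (-0.30 to 0.19), none called. At 48 h they differed in 18 members, 12 lower and 6 higher with ruxolitinib (21.9% of all genes called, 10.2% lower and 11.7% higher). The difference was -1.51 for ABCA1 (SE 0.22, adjusted p = 2.87e-06) and -1.05 for ABCG1 (SE 0.12, adjusted p = 2.85e-08). SCD (-0.35), DHCR7 (-0.33), INSIG1 (-0.26), SREBF1 (-0.23), FASN (-0.22) and ACACA (-0.20) were lower too. TM7SF2 (0.30), ACAT2 (0.21), PMVK (0.20), FADS1 (0.18), FADS2 (0.15) and SREBF2 (0.13) were higher with ruxolitinib. HMGCS1 (0.07, interval -0.05 to 0.19) and MYLIP (-0.17, interval -0.34 to 0.00) were not called. The count became 9 without ruxolitinib replicate 1 and 7 without ruxolitinib replicate 2 or itacitinib replicate 1, and DHCR7, SCD, ABCA1 and ABCG1 were called in every such fit.

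Against the other inhibitors at 48 h, ruxolitinib differed in 13 members from fedratinib (20.6% of all genes called), 11 from momelotinib (21%) and 15 from pacritinib (24.6%). With ruxolitinib minus the other inhibitor, DHCR7 gave -0.32, -0.34 and -0.35, SCD -0.23, -0.25 and -0.31 and ABCG1 -1.22, -1.14 and -0.72, in that order, all called. SREBF1 gave -0.23, -0.29 and -0.31, and FADS1 0.21, 0.16 and 0.16, also called. ABCA1 gave -1.50 against fedratinib, -1.63 against momelotinib and -1.17 against pacritinib, all called. DHCR7 and ABCG1 were called in these comparisons with each library left out, and so was ABCA1 against momelotinib and pacritinib. SCD against fedratinib was lost without fedratinib replicate 2 (adjusted p = 0.121 in edgeR). SREBF1 was lost against fedratinib without ruxolitinib replicate 1 (0.0535) or 2 (0.0549) or fedratinib replicate 1 (0.0529) and against pacritinib without pacritinib replicate 2 (0.0622), and each FADS1 call was lost in at least 1 such fit. The counts became 7 without ruxolitinib replicate 1 or fedratinib replicate 1, 6 without ruxolitinib replicate 2 and 8 without fedratinib replicate 2 for fedratinib. They became 6 without ruxolitinib replicate 1 and 7 without momelotinib replicate 1 for momelotinib, and 9 without ruxolitinib replicate 1 for pacritinib.

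At 4 h pacritinib differed from ruxolitinib in 15 members (44.1%, against 25.6% of all genes called), from fedratinib in 16 (47.1%, against 28.7%) and from momelotinib in 14 (41.2%, against 20.7%). From itacitinib it differed in 9 (26.5%), a share below the 29.1% of all genes. For MSMO1 the difference was -1.04 for ruxolitinib minus pacritinib (SE 0.12, adjusted p = 6.82e-08 in edgeR), -0.68 for fedratinib minus pacritinib, -0.89 for momelotinib minus pacritinib and 0.63 for pacritinib minus itacitinib, all called and all higher with pacritinib. SCD gave -0.58, -0.44, -0.52 and 0.48 in the same coding and SREBF2 -0.19, -0.29, -0.23 and 0.27, again higher with pacritinib. These calls on MSMO1, SCD and SREBF2 held with each library left out. MYLIP gave 0.28, 0.34, 0.25 and -0.28, lower with pacritinib, and was lost in 3 of them with a library left out. The counts became 9 for ruxolitinib and for momelotinib without pacritinib replicate 2, and 10 for fedratinib without fedratinib replicate 2 or pacritinib replicate 1. The remaining pairs held few calls. At 4 h ruxolitinib and fedratinib differed in 1 member (3.52% of all genes), IDI1 (-0.20). At 48 h fedratinib and pacritinib differed in 5 (12%), pacritinib and itacitinib in 4 (15.6%), momelotinib and pacritinib in 2 (8.07%) and fedratinib and itacitinib in 1 (5.94%), INSIG1 (-0.25). The share of members in these pairs was below that of all genes except for fedratinib and pacritinib at 48 h, where it was 14.7%.

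By edgeR 0 members were called in 6 pairs. At an unadjusted p under 0.05 there were 1 for ruxolitinib and momelotinib (0.722% of all genes called), 5 for fedratinib and momelotinib (1.41%), 3 for fedratinib and itacitinib (0.261%) and 7 for momelotinib and itacitinib (2.76%) at 4 h, and 5 for fedratinib and momelotinib (6.68%) and 7 for momelotinib and itacitinib (1.01%) at 48 h. DESeq2 called 1 member for momelotinib and itacitinib at 4 h and 0 in the other 5 pairs. For INSIG1 and SCD the levels with fedratinib and momelotinib at 48 h were 42.4 and 44.4 against 45.2 and 45.7 CPM and 274 and 302 against 291 and 295 CPM.

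A further list of 32 genes of the same pathways, such as transporters, carriers, LXR and RXR receptors and other lipogenic enzymes, had 30 that passed the filter. At 48 h ruxolitinib raised 8 and lowered 5 of them (43.3%, against 25.7% of all genes called), fedratinib raised 3 and lowered 3 (20%, against 7.7%) and momelotinib lowered 2 (6.67%, against 1.94%). Pacritinib raised 4 and lowered 2, and this 20% was near the 18.3% of all genes. Itacitinib changed 0 by edgeR (0.442% of all genes called), with 7 at an unadjusted p under 0.05 and 1 called by DESeq2. With ruxolitinib NPC2, a lysosomal cholesterol carrier, rose by 0.48 (SE 0.11), MID1IP1, an activator of acetyl-CoA carboxylase, by 0.31 and NR1H2, an LXR, by 0.26, while FABP5, a fatty acid carrier, fell by 0.44, ACSS2, which makes acetyl-CoA from acetate, by 0.23 and ACLY, which makes it from citrate, by 0.21. ELOVL5, a fatty acid elongase, and LBR, a sterol C14 reductase of the nuclear envelope, fell with fedratinib (-0.21 and -0.20) and momelotinib (-0.18 and -0.18). ACACB, the mitochondrial acetyl-CoA carboxylase, fell with fedratinib (-0.26), and LBR (-0.20) and FABP5 (-0.16) with pacritinib. RNF145, a ubiquitin ligase of the endoplasmic reticulum, rose with ruxolitinib (0.24), fedratinib (0.18) and pacritinib (0.18). RXRB, a partner of the LXRs, rose with ruxolitinib (0.25) and fedratinib (0.22), and NR1H2 also with fedratinib (0.18). ELOVL1, an elongase of very long chains, rose with ruxolitinib (0.27) and pacritinib (0.27), and MLX (0.23) and DHDDS (0.19) with pacritinib. Median changes of this list at 48 h were 0.04, 0.01, 0.01, 0.05 and -0.02 with ruxolitinib, fedratinib, momelotinib, pacritinib and itacitinib. Between 4 h and 48 h in DMSO (8.16% of all genes called), ACACB rose by 0.45 and MBTPS1, the protease that cleaves SREBPs, by 0.18, and 0 fell. Of the 30 genes, 6 had an unadjusted p under 0.05 in that comparison and DESeq2 called 3. At 4 h ruxolitinib raised 3 of the 30 (10%, near the 8.47% of all genes called) and momelotinib raised 1 and lowered 1 (6.67%, near 6%). Pacritinib raised 2 and lowered 3 (16.7%, below 30.6%) and itacitinib raised 1 (3.33%, against 0.778%). Fedratinib changed 0 by edgeR (1.59%), with 3 at an unadjusted p under 0.05 and 1 called by DESeq2. Among these calls, ACACB rose with ruxolitinib (0.53) and momelotinib (0.39). NPC1, the lysosomal cholesterol transporter, fell with momelotinib (-0.32) and pacritinib (-0.34), and the other calls at 4 h are not named.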

How the data were processed

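RNA of HEL cells was sequenced in 24 libraries. Per the submitters' processing notes, reads were demultiplexed with bcl2fastq, aligned to GRCh38 with STAR 2.5.1a and processed with edgeR. For the counting tool, annotation and strand setting, the sources used here give nothing. The authors deposited whole-number read counts per gene, 34343 entries of which 130 repeated an identifier with the same counts. Coordinates and exon lengths came from GENCODE 29, and promoters from RefSeq.

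The fit used R 4.3.3 with edgeR 4.0.16 (limma 3.58.1), filterByExpr, TMM scaling and 1 mean per group over all libraries (12 residual degrees of freedom, common biological coefficient of variation 0.0468). The SE is the log2 change divided by the root of the F statistic. The fit was also run on simulated counts with independent libraries, which checks the code only. Such counts cannot show how calls behave if the replicates were not separate cultures. Alternatives were DESeq2 1.42.0, RLE scaling, no filter, a filter of 1 CPM in 6 libraries, libraries of 1 time, a replicate block and each library left out. A library was left out only for comparisons that include its group. Totals of 32153866 to 56618281 counts set the precision. Libraries of a group differed by more than sampling noise in a chi-square check.

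The members, gene lists and comparisons were chosen with earlier results of these data known. All 34 members are named. Other pathway genes were named among the called with the largest changes, and library values are given for members called often or changed most.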

Additional observations from a re-analysis of the deposited data

Results flagged for a closer look

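The results below were taken up because an inhibitor's change against DMSO differed between the times, tested as the change at 48 h minus the change at 4 h in log2 units (edgeR, adjusted p under 0.05, background shares as given above). All were lower at 48 h. The DMSO libraries enter each difference, so the rise in DMSO is part of every value.

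With ruxolitinib the differences were FDFT1 (-0.32), LSS (-0.27), DHCR7 (-0.51), SREBF1 (-0.41), INSIG1 (-0.52), ACACA (-0.32), SCD (-0.51), ABCA1 (-1.73), ABCG1 (-1.49), MYLIP (-0.45). ABCA1 and ABCG1 stood furthest from 0. FDFT1, DHCR7, SREBF1, INSIG1, SCD, ABCA1 and ABCG1 were called with each library left out.

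With pacritinib they were ACAT2 (-0.34), HMGCS1 (-0.33), FDFT1 (-0.47), LSS (-0.28), MSMO1 (-0.97), HSD17B7 (-0.67), DHCR7 (-0.27), SREBF2 (-0.36), INSIG1 (-0.71), ACACA (-0.42), FASN (-0.35), SCD (-0.77), FADS1 (-0.24), FADS2 (-0.19), ABCG1 (-0.54), MYLIP (-0.37). For FDFT1, LSS, MSMO1, HSD17B7, SREBF2, ACACA and SCD the change had been called as a rise at 4 h, and for ABCG1 and MYLIP as a fall at both times. FDFT1, LSS, MSMO1, SREBF2, INSIG1, ACACA and SCD were called with each library left out.

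With fedratinib they were FDFT1 (-0.22), INSIG1 (-0.62), SCD (-0.43), and INSIG1 and SCD were called with each library left out. With momelotinib they were SCD (-0.32), MYLIP (-0.46), neither called in every such fit.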

How the results depend on the processing

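In the comparisons listed in the next paragraph, 0 called changes of single members changed direction under the alternatives run. Medians of the lists were not recomputed. Of 30 counts of calls, those outside 1.5 times the main value under another method were fedratinib at 4 h (2 against 1, with no filter or DESeq2), the momelotinib difference between times (4 with no filter and 5 with DESeq2, against 2) and ruxolitinib against itacitinib at 4 h (2 against 1, with the stricter filter). RLE scaling moved the median of all genes by at most 0.011. Of 85 member calls against DMSO, 80 held under all 6 other methods and 38 with each library left out, when the lone library of a group was assumed to vary like the others.

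Counts with each library of the compared groups left out in turn ran as follows. Against DMSO at 4 h they were 3 to 4 (ruxolitinib), 0 to 1 (fedratinib), 2 to 4 (momelotinib), 5 to 7 (pacritinib), 0 to 0 (itacitinib). Against DMSO at 48 h they were 15 to 18 (ruxolitinib), 5 to 11 (fedratinib), 4 to 8 (momelotinib), 7 to 16 (pacritinib), 0 to 8 (itacitinib), and for DMSO over time 10 to 11. For the difference between times they were 7 to 10 (ruxolitinib), 2 to 3 (fedratinib), 0 to 2 (momelotinib), 8 to 15 (pacritinib), 0 to 0 (itacitinib), and for 48 h against 4 h within an inhibitor 7 to 11 (ruxolitinib), 6 to 8 (fedratinib), 6 to 9 (momelotinib), 5 to 12 (pacritinib), 2 to 5 (itacitinib). Between inhibitors at 4 h they were 9 to 12 (ruxolitinib and pacritinib), 0 to 1 (ruxolitinib and itacitinib), 10 to 13 (fedratinib and pacritinib), 9 to 13 (momelotinib and pacritinib) and 6 to 9 (pacritinib and itacitinib). For ruxolitinib at 48 h they were 6 to 8 (fedratinib), 6 to 9 (momelotinib), 9 to 12 (pacritinib), 7 to 12 (itacitinib). The cause was not tested, beyond there being fewer samples.

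Same-numbered replicates did not deviate together across all tested genes (correlations -0.04 to 0.05 over 66 pairs of groups, 0 over 0.1). The main fit used no pairing, and such correlations cannot exclude one that affects few genes. A fit with the replicate block gave 5, 1, 5, 11 and 0 calls at 4 h and 20, 16, 12, 15 and 6 at 48 h, in the order ruxolitinib, fedratinib, momelotinib, pacritinib and itacitinib, and 14 for DMSO over time. Low counts limit ABCA1, CYP51A1 and HSD17B7, with means of 4.18, 4.14 and 5.05 CPM over all libraries.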
